A study of Mus musculus with 103 samples.

Results

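The 9 genes Actb, Gapdh, Hprt, Gusb, Tfrc, Ppia, B2m, Tbp and Ywhaz are widely used as references in expression studies, and their signal was followed over all 103 arrays of a mouse study of RNA amplification and labelling. They were taken by gene symbol, and 28 of the 22690 probe sets on the array were used for them. Of the 9 genes, 7 had an ordinary probe set that names them alone, among 12393 such genes on the array. The ordinary probe sets of Gapdh and the probe set of Ppia, 3 in all, carried several symbols and were left out, so Gapdh is described from the control probe set at its 3′ end and Ppia has no value here. Each gene is given by its brightest probe set (probe set 1419734_at for Actb), and the other probe sets follow where they differ.

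Housekeeping genes serve functions that nearly every cell needs, and a reference gene is chosen in the belief that its transcript keeps a steady share of the RNA. Actb encodes beta-actin of the cytoskeleton and Gapdh a glycolytic dehydrogenase. Hprt encodes the purine salvage enzyme hypoxanthine phosphoribosyltransferase, Gusb the lysosomal beta-glucuronidase, and Tfrc the transferrin receptor, which takes up iron and is abundant on red cell precursors. B2m encodes the light chain of MHC class I molecules, Tbp the TATA-binding protein of general transcription, Ywhaz a 14-3-3 adaptor protein, and Ppia the prolyl isomerase cyclophilin A.

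The study labelled 4 kinds of RNA. Universal RNA, the Stratagene Mouse Universal Total RNA reference, filled 58 arrays: the Affymetrix two-cycle kit, the Nugen Ovation system and the Arcturus RiboAmp HS kit at 50 pg, 500 pg, 5 ng, 50 ng and 500 ng (2 arrays per input), the BIIB protocol of Biogen Idec at 10 pg, 50 pg, 100 pg, 500 pg, 1 ng and 5 ng (4 arrays per input), and the Affymetrix one-cycle kit at 1 ug (4 arrays). The Ambion tissue panel gave 16 arrays: brain, embryo, heart, kidney, liver, lung, ovary and spleen RNA, each labelled once with BIIB at 500 pg and once with one-cycle at 1 ug. RAW267 cultured cells, sorted in numbers of 50 to 10000, gave 11 BIIB arrays. T and B cells sorted from the spleen of a single normal mouse and mixed at 6 ratios gave 18 BIIB arrays (12 of 100 cells, 6 of 500 cells). The labels name no genetic change or treatment and no age or strain. Ovation and BIIB put cDNA on the array, whereas two-cycle, RiboAmp HS and one-cycle put cRNA on it. No label says whether replicate arrays came from separate preparations, so a p-value here speaks only of array-to-array variation, part of which could come from labelling and hybridisation.

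The values are MAS5 signals, a brightness on a linear scale that the authors had set to a common trimmed mean, and the median signal of an array lay between 230 and 1661. The signal is thus relative to the other probe sets of the same array, and a lower level of one gene cannot be told apart from higher levels of the rest. In tissue RNA, fewer cells of a type and less RNA per cell cannot be told apart either. Arrays give no count of molecules, so the number of arrays limits the precision. The tissue labels were checked against marker genes. The 7 measured brain markers summed to 606 (BIIB) and 980 (one-cycle) on the arrays labelled brain, against 624596 and 285660 on those labelled liver. The 7 measured liver markers summed to 4527707 and 2112058 on the arrays labelled brain, against 192979 and 146453 on those labelled liver. Both pairs went against their labels, so they are named "labelled brain" and "labelled liver" throughout. The counts of tissue calls, the median spread and some changes are given with and without them, and the other tissue results with them only. In the BIIB series, replicates 1 and 2 stood apart from replicates 3 and 4, and no label names a batch. Actb, for example, had 109371 and 109957 at 1 ng in replicates 1 and 2, and 194136 and 196942 in replicates 3 and 4.

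The stretch before the transcription start is shown for B2m and Hprt. By brightest probe set, B2m had the widest spread over the one-cycle tissue arrays (SD 1.08 on the log2 scale, n = 8) and Hprt the narrowest (SD 0.44, n = 8). Over the BIIB tissue arrays the widest was Tfrc (SD 1.16) and the narrowest Actb (SD 0.35). The sequences are RefSeq's, 250 bases before the annotated start on the gene's strand, build GRCm38.p6. Capitals mark the TATA box core TATAA, the CAAT box core CCAAT and the GC box core GGGCGG, on either strand. B2m lies at chr2:122147437-122147686 (+) and Hprt at chrX:52987828-52988077 (+).
B2m: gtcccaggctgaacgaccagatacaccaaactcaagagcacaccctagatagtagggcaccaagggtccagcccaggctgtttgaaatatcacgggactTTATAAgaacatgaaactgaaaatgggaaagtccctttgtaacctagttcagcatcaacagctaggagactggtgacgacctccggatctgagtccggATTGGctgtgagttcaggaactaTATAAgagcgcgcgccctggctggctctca
Hprt: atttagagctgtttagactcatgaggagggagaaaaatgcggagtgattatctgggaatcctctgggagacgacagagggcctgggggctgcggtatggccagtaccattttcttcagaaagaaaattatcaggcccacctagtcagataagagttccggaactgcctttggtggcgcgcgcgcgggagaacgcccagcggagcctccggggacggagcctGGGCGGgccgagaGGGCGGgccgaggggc
The B2m stretch holds TATAA starting 30 bases before the start, a second TATAA at 150 bases before it that overlaps a match on the opposite strand, and CCAAT on the opposite strand at 53 bases before it. It holds no GGGCGG, a GC content of 50.8% and 8 CG pairs. The Hprt stretch holds GGGCGG at 29 and 16 bases before the start and neither of the other motifs, with a GC content of 59.6% and 17 CG pairs. Over 32851 mouse promoters of that length, 22.8% held TATAA, 33.8% CCAAT and 32.7% GGGCGG on either strand, with a median GC content of 52.4% and a median of 6 CG pairs. These matches are a description and were set against no expression value.

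Over all 103 arrays Actb spanned the widest range of the 7 genes. Its signal ran over 428, a median of 139889 and 1354785, the lowest, middle and highest array, a ratio of 3163 between the ends. B2m spanned the narrowest range, with 6109, 68410 and 296108 (48.5-fold). The 3′ control of Gapdh spanned 20427, 130811 and 787976 (38.6-fold). Hprt ran over 702, 21307 and 77750, Gusb over 56.0, 4772 and 16955, and Ywhaz over 182, 23621 and 62652. Tfrc had 41.7, 8300 and 114999, and Tbp had 5.20, 1552 and 10314. Of the 7 genes, Hprt and Tbp had both ends of their range on arrays of 50 pg (Ovation) or 10 pg (BIIB).

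**Figure D1:**
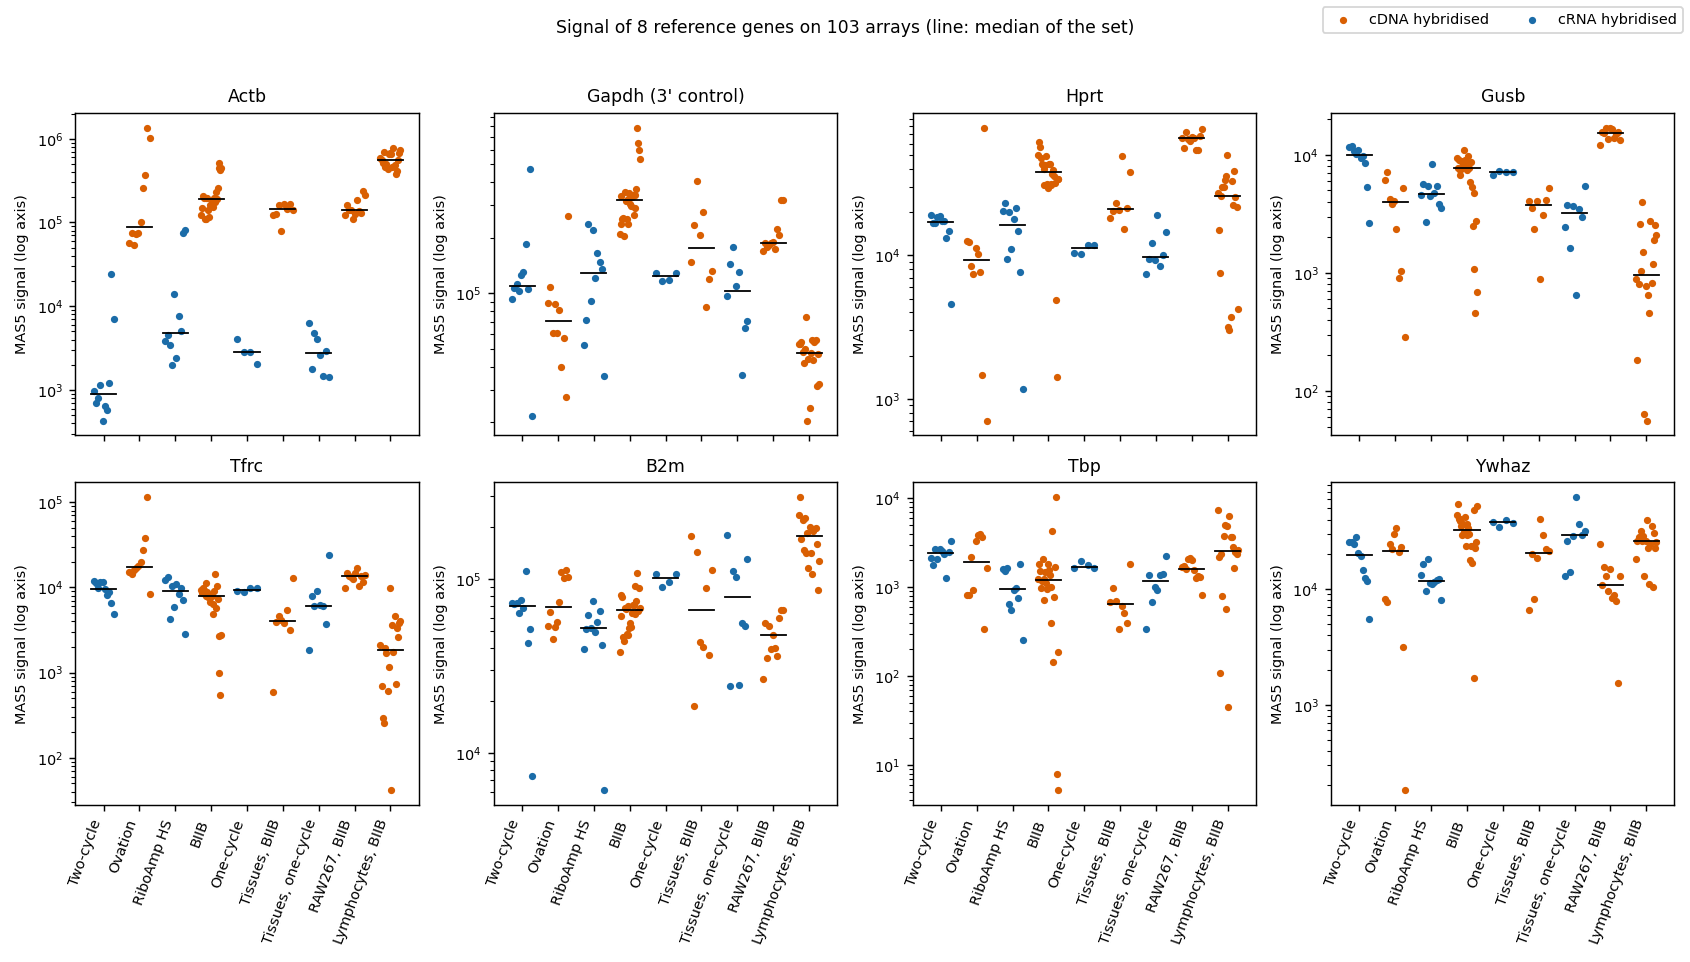
Signal of 8 reference genes on all 103 arrays (y axis: MAS5 signal, log scale; x axis: kind of RNA and protocol). Each point is an array, orange where cDNA and blue where cRNA was hybridised, and the black line is the median of the set; the orange and blue points of Actb stand apart in the tissues and in universal RNA at 100 pg and more, while the RiboAmp HS arrays of 50 pg (73851 and 80223) lie among the Ovation points.

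Arrays of cDNA and of cRNA stood apart in Actb and in no other gene of the 7, by brightest probe set. The kind of material cannot be told apart from the kit here, nor from the input in the tissues. With universal RNA at 100 pg or more, probe set 1419734_at read 54385, 151888 and 372079 (lowest, median, highest) on the 24 cDNA arrays, against 428, 2235 and 13861 on the 20 cRNA arrays. No array of either kind lay in the range of the other. This made 1 of 7 genes without overlap, against 2.06% of 12817 probe sets. In the tissues Actb read 78972, 142839 and 165850 with BIIB and 1417, 2766 and 6351 with one-cycle, again without overlap (1 of 7 genes, against 10.3% of probe sets). A second probe set of Actb, 1436722_a_at, overlapped between the kinds in both sets of arrays. Among the other probe sets, 1439005_x_at of Ywhaz also read higher on every cDNA array, and 26 of the 28 overlapped on universal RNA. In the tissues 24 of the 28 overlapped, and the 5′ and middle control probe sets of Actb were lower on every cDNA array (difference of the medians -3.17 and -2.01, log2), opposite to 1419734_at.

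With one-cycle labelling of universal RNA, replicate arrays lay close together. Actb had the widest spread (4097, 2800, 2799 and 2039, SD 0.39), and the SD of every other gene was between 0.06 and 0.12 on the log2 scale (n = 4). Hprt read 10470, 10259, 11875 and 11907, and Ywhaz 38531, 34655, 39449 and 37696. The median SD of the 8 genes was 0.10, against 0.13 over all probe sets.

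Each of the other protocols was set against one-cycle with limma on the log2 scale, after adding to each signal a constant of 5.00% of the arrays' common trimmed mean of 2501, which understates the change of dim genes. A gene was called where the adjusted p lay under 0.05 with the change 2-fold or more. Over the 4 protocols 8 calls were made on the 7 genes. Actb read 966 and 707 with two-cycle at 500 ng, against 2039 to 4097 with one-cycle, without overlap. It fell by 1.64 ± 0.24 (log2 ± SE, adjusted p = 0.00103), the only call of the 7 genes there (11.6% of probe sets called, median change of all probe sets -0.04).

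Ovation at 500 ng moved the genes in both directions (3 of 7 called, against 47.1% of probe sets, median change -0.39). Actb read 56288 and 75785 and rose by 4.46 ± 0.25 (adjusted p = 1.59e-06). Ywhaz read 8262 and 7785, against 34655 to 39449 with one-cycle, and fell by 2.21 ± 0.10 (adjusted p = 7.29e-07). Tbp read 809 and 814, against 1635 to 1962 with one-cycle, and fell by 1.00 ± 0.11 (adjusted p = 6.59e-05). The call of Tbp sat at the 2-fold limit and was lost with quantile normalization (change -0.44) and without Ovation replicate 1 or one-cycle replicate 2 or 3. Hprt changed by 0.17 ± 0.11 and Gusb by -0.11 ± 0.11 (adjusted p = 0.20 and 0.39).

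RiboAmp HS at 500 ng lowered Ywhaz and B2m (2 of 7 called, against 48% of probe sets, median change -0.40). Ywhaz read 13292 and 16415 and fell by 1.34 ± 0.12 (adjusted p = 1.76e-05), while its second brightest probe set changed by -0.62, under the 2-fold limit. B2m read 39651 and 51318, against 90082 to 107242 with one-cycle, and fell by 1.14 ± 0.14 (adjusted p = 9.65e-05). Without RiboAmp HS replicate 1 the change of B2m stayed under 2-fold (-0.96).

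BIIB at 5 ng raised Actb and Hprt (2 of 7 called, against 40.8% of probe sets, median change -0.28). Actb read 121820, 149733, 207776 and 194718 and rose by 5.79 ± 0.23 (adjusted p = 1.21e-08). Hprt read 50211, 62073, 56901 and 47450, against 10259 to 11907 with one-cycle, and rose by 2.27 ± 0.13 (adjusted p = 1.24e-07). This call of Hprt held in all 20 alternative settings tried. Hprt has no second probe set, so the setting of the second brightest probe set repeated the main fit. Tfrc read 8669 to 9948 with BIIB, against 8806 to 9809 with one-cycle, and its change was -0.01 ± 0.11, while its second brightest probe set, 1422966_a_at, changed by -2.70 ± 0.17. The 3′ control of Gapdh rose by 1.05 ± 0.15 (adjusted p = 0.0001).

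The direction of Actb depended on the probe set. Probe set 1436722_a_at averaged 99342 with two-cycle, 20790 with Ovation, 37293 with RiboAmp HS and 126573 with BIIB, against 153908 with one-cycle. Its change was -0.63, -2.88, -2.04 and -0.31 in that order, so with Ovation and BIIB it ran opposite to 1419734_at. For Ywhaz, 1448219_a_at fell by 2.21 with Ovation, while 1436971_x_at changed by 1.11 and 1436981_a_at by 5.14.

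**Figure D2:**
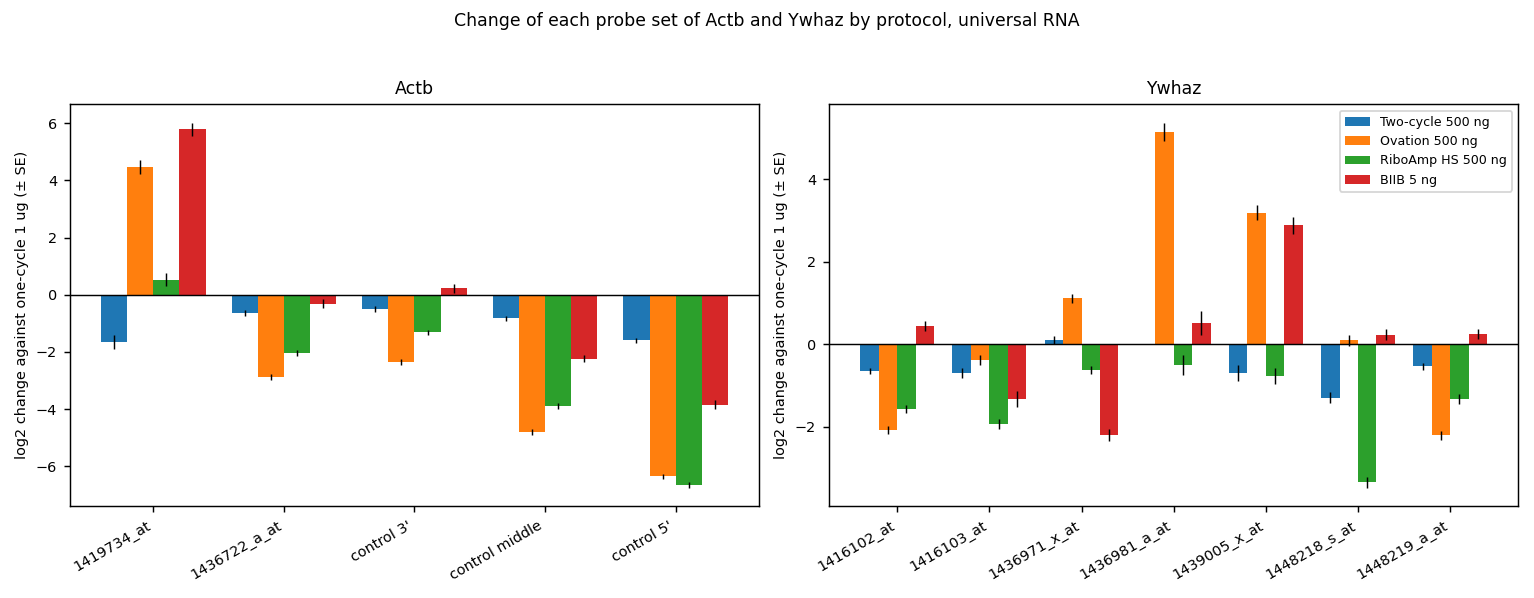
Change of each probe set of Actb (left) and Ywhaz (right) under 4 protocols against one-cycle at 1 ug, universal RNA (y axis: log2 change, bars start at 0, error bars are SE; probe set 1436981_a_at was too dim to be tested with two-cycle). Probe set 1419734_at of Actb is above 0 with Ovation and BIIB while every other Actb probe set is below 0 with Ovation.

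Genes of the same pathways were set beside the reference genes. Of the 10 actin-related genes tested with BIIB at 5 ng, none rose and 4 fell, among them the actin-binding Pfn1 (-4.18 ± 0.16) and the thymosin Tmsb10 (-2.41 ± 0.12). The median of the list was -0.68, against -0.28 over all probe sets. Of 9 MHC class I genes 3 fell, led by the chaperone Calr (-3.00 ± 0.11), and the list median was -0.67. Both counts are near or below the 40.8% called over all probe sets.

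Within the Actb and Gapdh transcripts, control probe sets at the 3′ and the 5′ end show how far along the transcript the signal reaches. On universal RNA the 3′ to 5′ ratio of Actb was 15.9 to 24.8 with BIIB at 5 ng, against 1.16 to 1.27 with one-cycle. The mean log2 ratio was higher by 4.09 (exact permutation test, two-sided, p = 0.0286, the smallest p that 4 against 4 arrays can give, adjusted over 3 genes p = 0.0429). The ratio of Gapdh was 7.01 to 13.9 with BIIB, against 0.81 to 0.87 with one-cycle, and higher by 3.56 on the log2 scale (same test, exact p = 0.0286, adjusted p = 0.0429). For Tfrc the difference of 1.65 gave an exact permutation p of 0.0571. In both genes every BIIB array lay above every one-cycle array.

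Ratios were also taken in tissues and cells. Over the 8 tissues Actb had ratios of 8.17, 14.6 and 25.2 (lowest, median, highest) with BIIB, against 1.23, 1.51 and 1.80 with one-cycle. Gapdh had 6.40, 7.87 and 10.5 with BIIB, against 0.85, 0.90 and 1.11 with one-cycle. The BIIB and one-cycle tissue ranges did not overlap in either gene. In cells labelled with BIIB, Actb ratios were 15.96 to 35.8 in RAW267 and 11.5 to 55.1 in lymphocytes of 100 cells, and Gapdh ratios 5.08 to 9.02 and 2.75 to 10.4. With two-cycle the Actb ratios were higher at lower input: 6.55 and 9.23 at 50 pg, 4.29 and 4.84 at 500 pg, 3.94 and 4.47 at 5 ng, 2.97 and 3.09 at 50 ng, and 2.35 and 2.73 at 500 ng. The part of these ratios in the calls on Actb and Gapdh was not tested.

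Input was compared within each kit as 50 pg against 500 ng. With two-cycle, none of the 7 genes was called between 50 pg and 500 ng (limma, 0.193% of probe sets called), although 4 of 7 had an unadjusted p under 0.05. Actb read 24254 and 6946 at 50 pg, 577 and 1216 at 500 pg, 428 and 645 at 5 ng, 812 and 1134 at 50 ng, and 966 and 707 at 500 ng. The 50 pg arrays were thus the highest, with a change of 3.78 ± 0.65 that missed the threshold (adjusted p = 0.066). Replicates spread widely there, as in B2m (51913 and 7418 at 50 pg, 72474 and 72141 at 500 ng).

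With Ovation, Actb read 1354785 and 1021674 at 50 pg, 261188 and 372079 at 500 pg, 75103 and 102484 at 5 ng, 54385 and 73368 at 50 ng, and 56288 and 75785 at 500 ng. Both 50 pg arrays lay above all others of this kit, and it rose by 4.17 ± 0.52 against 500 ng (adjusted p = 0.00345). The second probe set of Actb, 1436722_a_at, changed by -0.031 there and was not called (adjusted p = 0.98). Ywhaz read 3140 and 182 at 50 pg, 20869 and 22971 at 500 pg, 29750 and 33913 at 5 ng, 24495 and 22084 at 50 ng, and 8262 and 7785 at 500 ng. It fell by 3.02 ± 0.95 at 50 pg (adjusted p = 0.0474), although all 3 inputs in between read higher than 500 ng. These were 2 calls of 7, against 26.9% of probe sets. Hprt read 77750 and 702 at 50 pg, against 12616 and 12337 at 500 ng, so the 50 pg replicates lay on both sides of the 500 ng arrays. Ywhaz lost its call with a pseudocount of 25 (adjusted p = 0.065) and with the replicate number as a block (adjusted p = 0.053), and its second brightest probe set changed by 2.61.

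With RiboAmp HS, Actb read 73851 and 80223 at 50 pg, 7699 and 5106 at 500 pg, 13861 and 2431 at 5 ng, 3433 and 2000 at 50 ng, and 3838 and 4514 at 500 ng. It rose by 4.17 ± 0.78 at 50 pg (adjusted p = 0.0222; 1 of 7 called, against 14.2% of probe sets). Probe set 1436722_a_at changed by -1.18 and was not called (adjusted p = 0.42). Hprt read 7691 and 1165 at 50 pg, against 20495 and 23129 at 500 ng, a change of -2.79 ± 0.84 that missed the threshold (adjusted p = 0.055). Every call at 50 pg was lost when only the 4 arrays compared entered the fit, and both kits' calls of Actb were lost without either 500 ng replicate.

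BIIB was compared at each lower input with 5 ng. None of the 7 genes was called by limma at 1 ng or 500 pg (0% of probe sets called), at 100 pg (0.785%) or at 50 pg (1.02%), while at those inputs 1, 2, 2 and 1 of them had an unadjusted p under 0.05, Hprt each time. With the replicate number as a block no gene was called at these 4 inputs either. Hprt read 36860, 39400, 35848 and 32053 at 50 pg and 50211, 62073, 56901 and 47450 at 5 ng, without overlap, and changed by -0.58 ± 0.26 (adjusted p = 0.33). At 50 pg the SD over 4 arrays was 0.12 in Hprt, 0.22 in B2m, 0.25 in Actb, 0.57 in Tfrc, 0.64 in Ywhaz, 0.72 in Gusb and 1.70 in Tbp, against a median of 0.90 over all probe sets. Tbp was the only one of these above that median, with 4302, 144, 772 and 1688.

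At 10 pg 3 of the 7 genes were called against 5 ng, against 12.2% of probe sets, and the median over all probe sets was -0.78. The lysosomal Gusb read 1078, 459, 2758 and 683 at 10 pg and 9307, 7668, 9004 and 6677 at 5 ng (adjusted p = 0.0118). Tfrc read 1002, 2721, 554 and 2740 at 10 pg and 9338, 8669, 9948 and 9227 at 5 ng (adjusted p = 0.0184). In both genes every array at 10 pg lay below every array at 5 ng. Actb moved the other way, with 511850, 441284, 426876 and 449915 at 10 pg, all above the 5 ng arrays (adjusted p = 0.0429). With replicates 1 and 2 against 3 and 4 as a block, Gusb and Tfrc kept their calls (adjusted p = 0.0194 and 0.0296) and Actb lost its call (adjusted p = 0.0594). With the replicate number as a block Gusb kept its call (adjusted p = 0.047), and Tfrc and Actb lost theirs (adjusted p = 0.0644 and 0.168). With quantile normalization Gusb changed by -1.93 and kept its call, Tfrc by -1.78 and Actb by 0.49, both without a call (adjusted p = 0.0505 and 0.447).

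Replicates at 10 pg were far apart in other genes. Hprt read 4913 and 1416 in replicates 1 and 2, and 33900 and 34003 in replicates 3 and 4, a change of -2.47 ± 0.96 (adjusted p = 0.13). Ywhaz read 1716, 22693, 25635 and 52995. B2m had the smallest change of the 7, with 107859, 65419, 89228 and 67785 at 10 pg (change 0.38 ± 0.44, adjusted p = 0.63). The calls of Actb and Tfrc were lost when any 1 of the 4 arrays of 5 ng was left out, and that of Gusb without replicate 1, 2 or 3 of 5 ng.

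**Figure D3:**
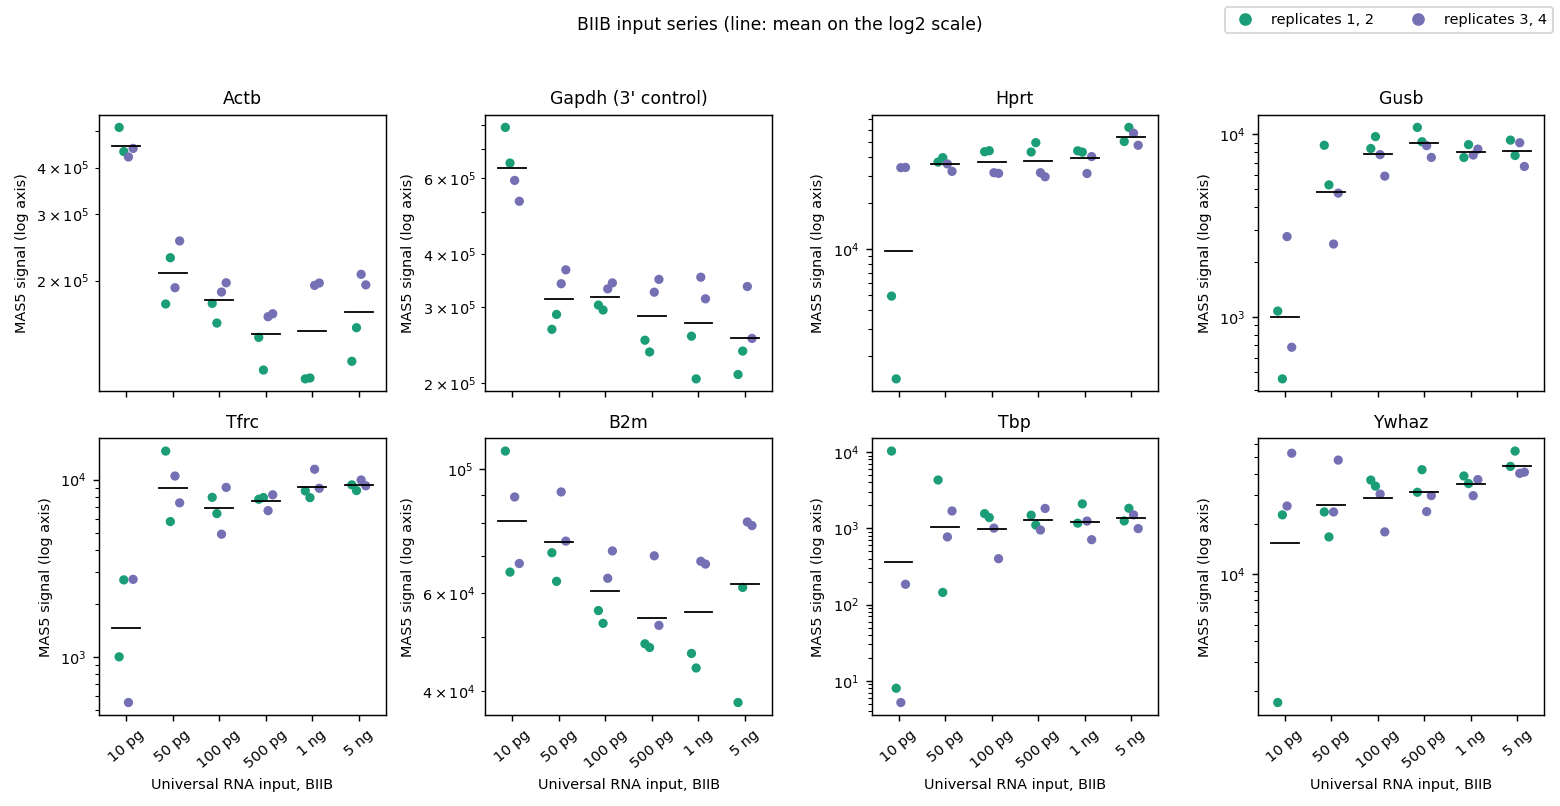
Signal of 8 reference genes over the BIIB inputs of universal RNA (x axis: 10 pg to 5 ng; y axis: MAS5 signal, log scale). Points are arrays, green for replicates 1 and 2 and purple for replicates 3 and 4, and the line is the mean on the log2 scale; the 10 pg arrays of Actb (426876 to 511850) lie above and those of Gusb (459 to 2758) below all 5 ng arrays.

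Among the partner genes at 10 pg, 2 of 11 actin-related genes rose, the skeletal actin Acta1 (1.91 ± 0.52) and the actin-severing Cfl1 (1.48 ± 0.39), and none fell. Of 5 iron-related genes 2 fell, the iron exporter Slc40a1 (-2.63 ± 0.52) and the iron sensor Ireb2 (-1.96 ± 0.44). Over all probe sets 12.2% were called. None of 6 lysosomal hydrolases was called, with a median of -1.65, and none of 14 further reference genes was called, with a median of 0.28.

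Over the 8 labelled tissues, 5 of the 7 genes varied (limma moderated F test with protocol as a covariate, against 73.6% of probe sets). The range between the highest and lowest tissue was 3.90 (log2) in Tfrc, 3.06 in B2m, 2.63 in Gusb, 2.42 in Ywhaz and 1.43 in Hprt, with adjusted p of 0.000116, 0.000711, 0.000381, 0.000196 and 0.00647. Tbp (range 1.80, adjusted p = 0.10) and Actb (0.93, adjusted p = 0.55) did not pass. The 3′ control of Gapdh also passed (range 2.28, adjusted p = 0.000393). Without the arrays labelled brain and liver 4 genes varied, Hprt having lost its call (range 1.04, adjusted p = 0.10).

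B2m, which every class I molecule needs at the cell surface, ran highest to lowest over labelled brain 177097, heart 142921, spleen 113360, lung 89098, kidney 43509, labelled liver 40621, ovary 36831 and embryo 18592 with BIIB. With one-cycle the order was labelled brain 178873, spleen 129865, heart 110829, kidney 102598, lung 55868, ovary 54074, labelled liver 24694 and embryo 24137. Embryo was lowest in both, while on the second probe set of B2m, 1452428_a_at, ovary was lowest in both. Against the mean of the other 7 tissues B2m fell by 1.88 ± 0.34 in embryo (adjusted p = 0.00216; 1 of 7 genes called, against 16% of probe sets), a call lost without the BIIB embryo array. Without the arrays labelled brain and liver the value was -1.91.

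The class I pathway was set beside B2m. In embryo, where 16% of probe sets were called, 6 of 9 of its genes fell and none rose, with the heavy chains H2-K1 at -2.90 ± 0.24 and H2-D1 at -2.63 ± 0.28 and a list median of -1.75, against 0.04 over all probe sets. In the labelled brain arrays 4 of 9 rose and none fell, again led by H2-K1 (1.74 ± 0.24) and H2-D1 (1.72 ± 0.28). H2-K1 was also the gene whose pattern was most like B2m's over the 16 tissue arrays (Pearson r = 0.91 after centring within protocol), followed by Gbp7 and AW112010 (0.90 each). These r values are a description over arrays that share a tissue and carry no test.

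Tfrc was highest in spleen under both protocols. It read 13044 with BIIB and 24043 with one-cycle there, against 598 to 5445 and 1863 to 9007 in the other tissues. It rose by 2.07 ± 0.27 in spleen (adjusted p = 0.000127) and held this call in all 21 alternative settings, with 1.76 without the arrays labelled brain and liver. Erythroid markers (4 of 7 measured) summed to 90569 (BIIB) and 140766 (one-cycle) in spleen, 35759 and 54517 in embryo, and at most 16439 in any other tissue. Their part in the result was not tested. Of 7 iron-related genes 3 rose in spleen and 1 fell, with Slc40a1 at 2.29 and the cytosolic aconitase Aco1 at -1.97. Embryo, second in erythroid signal, had Tfrc at 3976 and 8004, within the range of the other tissues.

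Spleen also held the highest Tbp and Gusb (3 of 7 genes called there, against 34.3% of probe sets). Tbp read 1808 with BIIB and 2243 with one-cycle, against 337 to 969 and 340 to 1423 elsewhere, and rose by 1.31 ± 0.38 (adjusted p = 0.0157). The call was lost without either spleen array. The second probe set of Tbp, 1426470_at, was too dim to be tested in the tissues. It read 102 with BIIB and 33.7 with one-cycle in spleen, and was highest in labelled liver with BIIB (271) and in lung with one-cycle (284). Gusb read 5230 with BIIB and 5442 with one-cycle, and rose by 1.00 ± 0.24 (adjusted p = 0.0056), at the 2-fold limit. It was 0.73 without the arrays labelled brain and liver and was lost in 10 of 21 alternative settings, 8 of them leaving out 1 array.

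The arrays labelled liver and labelled brain carried the other extremes. On those labelled liver, 4 of 7 genes were called, against 34.6% of probe sets. Gusb was lowest there, at 893 with BIIB and 644 with one-cycle, against 2365 to 5230 and 1627 to 5442 elsewhere, and fell by 2.00 ± 0.24 (adjusted p = 4.57e-05). Its second probe set, 1430332_a_at, changed by -0.67 and was not called (adjusted p = 0.12), and labelled liver was not the lowest tissue on it under either protocol (heart 10.5 and lung 5.40 lay below its 16.5 with BIIB, heart 460 and labelled brain 594 below its 671 with one-cycle). Ywhaz was highest, at 40652 and 62652, against 6669 to 29233 and 13063 to 36617 elsewhere, and rose by 1.35 ± 0.22 (adjusted p = 0.000426). Hprt was highest too, at 49340 and 19155, and rose by 1.06 ± 0.21 (adjusted p = 0.00194). B2m fell by 1.22 ± 0.34 (adjusted p = 0.0125), and its second probe set changed by -0.95, under the 2-fold limit. Without the BIIB array the call of Hprt was lost (adjusted p = 0.051), and without the one-cycle array that of B2m. These arrays carried the brain markers, as given above.

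The rest of the 14-3-3 family was set beside Ywhaz. Of its 6 other members 4 rose on the arrays labelled liver and none fell, with Ywhah at 2.62, Ywhab at 1.68 and Ywhag at 1.65 (list median 1.55, against -0.11 over all probe sets). On the arrays labelled brain Ywhaz was lowest (6669 and 13063) and fell by 1.42 ± 0.22 (adjusted p = 0.000309), and 2 of the 6 fell, Ywhah (-1.55) and Ywhaq (-1.37). There 3 of the 7 reference genes were called, against 34.7% of probe sets. Tfrc read 598 and 1863 and fell by 2.38 ± 0.27 (adjusted p = 3.52e-05), and B2m rose by 1.62 ± 0.34 (adjusted p = 0.0025). Of the iron-related genes 3 of 7 rose on the arrays labelled brain, led by the second transferrin receptor Tfr2 (5.13 ± 0.39). These arrays carried the liver markers.

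In heart 2 of 7 genes were called, against 22.6% of probe sets. Ywhaz read 8246 with BIIB and 13984 with one-cycle and fell by 1.19 ± 0.22 (adjusted p = 0.00177), in all 21 alternative settings. B2m rose by 1.05 ± 0.34 (adjusted p = 0.0376), and kept that call in 9 of 21. The 3′ control of Gapdh was highest in heart, at 404911 and 179185, and lowest in lung, at 84375 and 36087. It rose by 1.21 ± 0.22 in heart (adjusted p = 0.0016) and fell by 1.40 ± 0.22 in lung (adjusted p = 0.000658).

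Gapdh belongs to glycolysis, and other genes of that pathway were set beside it. In heart, with 22.6% of probe sets called, 9 of 16 rose and 2 fell, led by the muscle isoforms Eno3 (6.05) and Pgam2 (5.92) and the hexokinase Hk2 (4.04), with a list median of 1.36. In lung, with 21.4% called, none rose and 4 fell, among them Tpi1 (-1.55) and Pgk1 (-1.39). Pgk1 (r = 0.96) and Tpi1 (r = 0.95) were also the genes most like the Gapdh control over the 16 arrays. By the F test, which called 73.6% of all probe sets, 16 of 16 glycolytic genes varied over the tissues, 6 of 6 other 14-3-3 genes and 1 of 7 genes of the TFIID complex that holds Tbp. For the further reference genes the count was 10 of 14, near that share.

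Kidney, lung and ovary had no call among the 7 genes with limma (23%, 21.4% and 15.4% of probe sets called), and 0, 2 and 0 genes had an unadjusted p under 0.05. In lung these were Hprt (-0.57 ± 0.21) and Ywhaz (0.63 ± 0.22). By Pearson's r over the 16 tissue arrays, the gene most like each remaining one was Ddx24 for Hprt (r = 0.94), Stk38 for Gusb (0.92), Cdr2 for Tfrc (0.94), Pold2 for Tbp (0.88), Hsp90aa1 for Ywhaz (0.94) and Rpl27a for Actb (0.80).

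**Figure D4:**
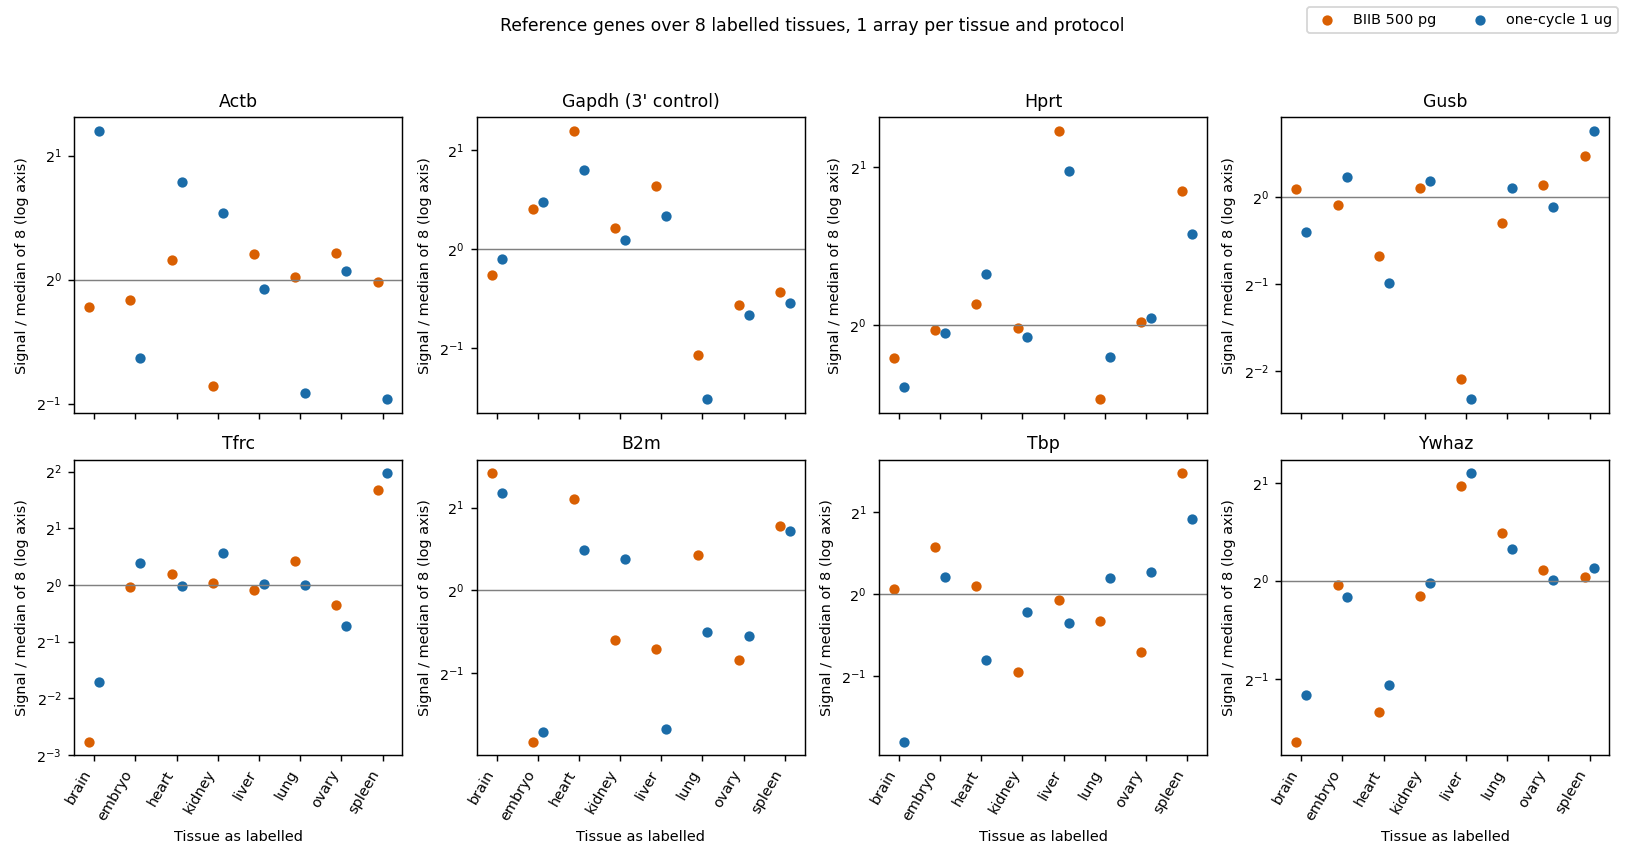
Signal of 8 reference genes in 8 labelled tissues, as a multiple of the gene's median over the tissues within a protocol (y axis, log scale; orange BIIB at 500 pg, blue one-cycle at 1 ug; 1 array each). The points of a tissue lie closer together in Hprt, Gusb, Tfrc, Ywhaz and Gapdh. They lie farther apart in Actb and Tbp (SD of the log2 difference between protocols 0.92 and 0.78), with B2m in between (0.66). Arrays labelled brain and liver carry each other's markers.

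The tissue patterns of the protocols were set against each other. Pearson's r between the BIIB and one-cycle values over the 8 tissues was 0.98 in Ywhaz, 0.96 in the Gapdh control, 0.95 in Hprt, 0.94 in Gusb, 0.92 in Tfrc and 0.82 in B2m, against a median of 0.80 over all probe sets. It was 0.34 in Tbp and -0.25 in Actb. For Actb the labelled brain array was highest with one-cycle and second lowest with BIIB. These are descriptions over 8 points that share their RNA, with no test.

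Over the tissues Actb and Hprt changed level between the protocols, as on universal RNA (2 of 7 called, against 36.6% of probe sets). Actb rose by 5.54 ± 0.28 with BIIB (adjusted p = 5.42e-08). Hprt was higher with BIIB in 8 of 8 tissues and rose by 1.14 ± 0.14 (limma, adjusted p = 2.95e-05), in all 21 alternative settings. The setting of the second brightest probe set repeated the main fit, since Hprt has no second probe set. Tfrc and Ywhaz were lower with BIIB in 8 of 8 tissues (-0.72 ± 0.18 and -0.58 ± 0.14, adjusted p = 0.0044 and 0.0042), under the 2-fold limit. The second probe set of Actb again ran the other way, at -0.66 ± 0.23.

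The spread over the tissues was compared with that of the whole array. With BIIB the SD (log2, n = 8) was 0.35 in Actb, 0.56 in Hprt, 0.65 in Tbp, 0.75 in Gusb, 0.87 in Ywhaz, 1.13 in B2m and 1.16 in Tfrc, against a median of 0.95 over all probe sets. With one-cycle it was 0.77 in Actb, 0.44 in Hprt, 0.71 in Tbp, 0.89 in Gusb, 0.73 in Ywhaz, 1.08 in B2m and 1.03 in Tfrc, against 0.81. The second probe set of Actb, 1436722_a_at, went the other way, with 0.84 with BIIB and 0.27 with one-cycle. The place of Actb among the genes thus depended on the probe set. The mean SD of a gene's within-array log2 ratio to the other genes was lowest in Hprt with one-cycle (0.92) and in Actb with BIIB (0.88), and highest in B2m (1.41 with BIIB, 1.35 with one-cycle). B2m and Tfrc, the genes tied to antigen presentation and iron uptake, were above the array's median under both protocols.

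In sorted cells the reference genes told RAW267 from lymphocytes. The cells that the labels call RAW267 carried macrophage markers (6 of 7 measured, sum 345313 to 733372 on their 11 arrays, against at most 9806 in lymphocytes). Gusb read 11980, 15403 and 16955 (lowest, median, highest) in RAW267, against 56.0, 963 and 3953 on the 18 lymphocyte arrays. Hprt read 53949, 65415 and 76176 in RAW267, against 3035, 25882 and 49902 in lymphocytes. Actb read 111433, 138966 and 235218 in RAW267, against 382985, 556565 and 769551. B2m read 26684, 47702 and 66796 in RAW267, against 85991, 176146 and 296108. These 4 of 7 genes did not overlap between the cell kinds, against 4.16% of probe sets, with Gusb and Hprt higher and Actb and B2m lower in RAW267.

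The comparison at 500 cells and with the share of B cells in the fit called 3 of 7 genes, against 8.98% of probe sets. Gusb rose by 3.02 ± 0.57 in RAW267 (adjusted p = 0.0145), B2m fell by 1.99 ± 0.47 (adjusted p = 0.0332), and Actb fell by 1.72 ± 0.46 (adjusted p = 0.0489). The comparison rests on 2 RAW267 arrays, and the 3 calls were lost without either of them. Actb was called in 1 of 13 alternative settings, B2m in 7 of 13 and Gusb in 10 of 12. B2m lost its call with quantile normalization (adjusted p = 0.0502) and without the lymphocyte array of T cells alone or those with 100 or 300 B cells of 500. The second probe set of B2m moved alike (19109 to 32427 in RAW267, against 65709 to 197844 in lymphocytes), while those of Actb and Gusb overlapped. The dim second probe set of Gusb, 1430332_a_at, read 15.7, 355 and 744 (lowest, median, highest) in RAW267, against 33.4, 104 and 1343 in lymphocytes.

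Around these genes, and with 8.98% of probe sets called, 3 of 9 class I genes fell in RAW267, H2-K1 (-2.17), H2-D1 (-2.15) and Tap1 (-2.13), and none rose. Of 16 glycolytic genes 8 rose and none fell, led by Hk2 (4.81), Aldoc (4.73) and Pkm (4.67), with a list median of 2.34, against -0.40 over all probe sets. The Gapdh control read 169352 to 321149 in RAW267, against 20427 to 74532 in lymphocytes, and rose by 2.19 ± 0.47 (adjusted p = 0.025). Among 6 lysosomal hydrolases Hexa rose (5.13) and none fell.

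Between unmixed B and T cells no gene of the 7 was called (limma, 0.24% of probe sets called, 0 of 7 at an unadjusted p under 0.05). The sorts held to their markers: T cell markers summed to 4107 and 4237 in unmixed B cells at 100 cells, against 144960 and 149377 in unmixed T cells. Hprt read 3035 and 3746 at 100 cells and 4212 at 500 cells in B cells, against 27361, 14912 and 33258 in T cells. B2m read 140633, 106288 and 126683 in B cells, against 233704, 296108 and 188977 in T cells. Hprt and B2m, both lower in unmixed B cells, were the 2 of 7 genes without overlap over these 3 arrays against 3, against 13.1% of probe sets. The fitted change at 100 cells was -2.54 ± 1.23 in Hprt (adjusted p = 0.79) and -1.10 ± 0.97 in B2m (adjusted p = 0.95). The second probe set of B2m also kept apart, at 65983 to 86159 in B cells, against 106078 to 197844 in T cells. On the 12 mixed arrays the median of Hprt was 27974, no lower than the 27361 of unmixed T cells. With 20 T and 80 B cells Hprt read 49902 and 3189, and with 100 T and 400 B cells 21669. The mixed median of B2m was 176146, between those of unmixed B cells (126683) and unmixed T cells (233704). All these cells came from 1 mouse.

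The spread between arrays was larger at 100 cells for some genes than for others. Over the 12 lymphocyte arrays of 100 cells the SD was 0.27 in Actb, 0.44 in B2m, 0.52 in Ywhaz, 1.39 in Gusb, 1.47 in Hprt, 1.60 in Tfrc and 1.86 in Tbp, against a median of 1.27 over all probe sets. The lowest array read 45.0 in Tbp and 41.7 in Tfrc, below the added constant. Over the 6 arrays of 500 cells every gene but Hprt (1.14) was below the median SD of 1.01. The mixing ratio differs between these arrays, so the SD holds both its effect and the replicate error.

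In RAW267 no gene was called for a slope over 50 to 10000 cells (limma, slope on log10 cell number, 0 of 7 called, against 3.12% of probe sets; 2 of 7, Tbp and Ywhaz, had an unadjusted p under 0.05). Ywhaz read 1537 and 13041 at 50 cells, 7968 at 100, 8409 and 8966 at 500, 9714 and 15047 at 1000, 15468 and 12912 at 5000, and 24662 and 10824 at 10000. Its fitted change over the whole range of 50 to 10000 cells was 1.67 ± 0.61 (log2, adjusted p = 0.12). Gusb and Hprt were the steadiest, with SDs of 0.16 over 11 arrays, against a median of 0.65 over all probe sets. Ywhaz had the largest SD (0.98) and was the only gene above that median.

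**Figure D5:**
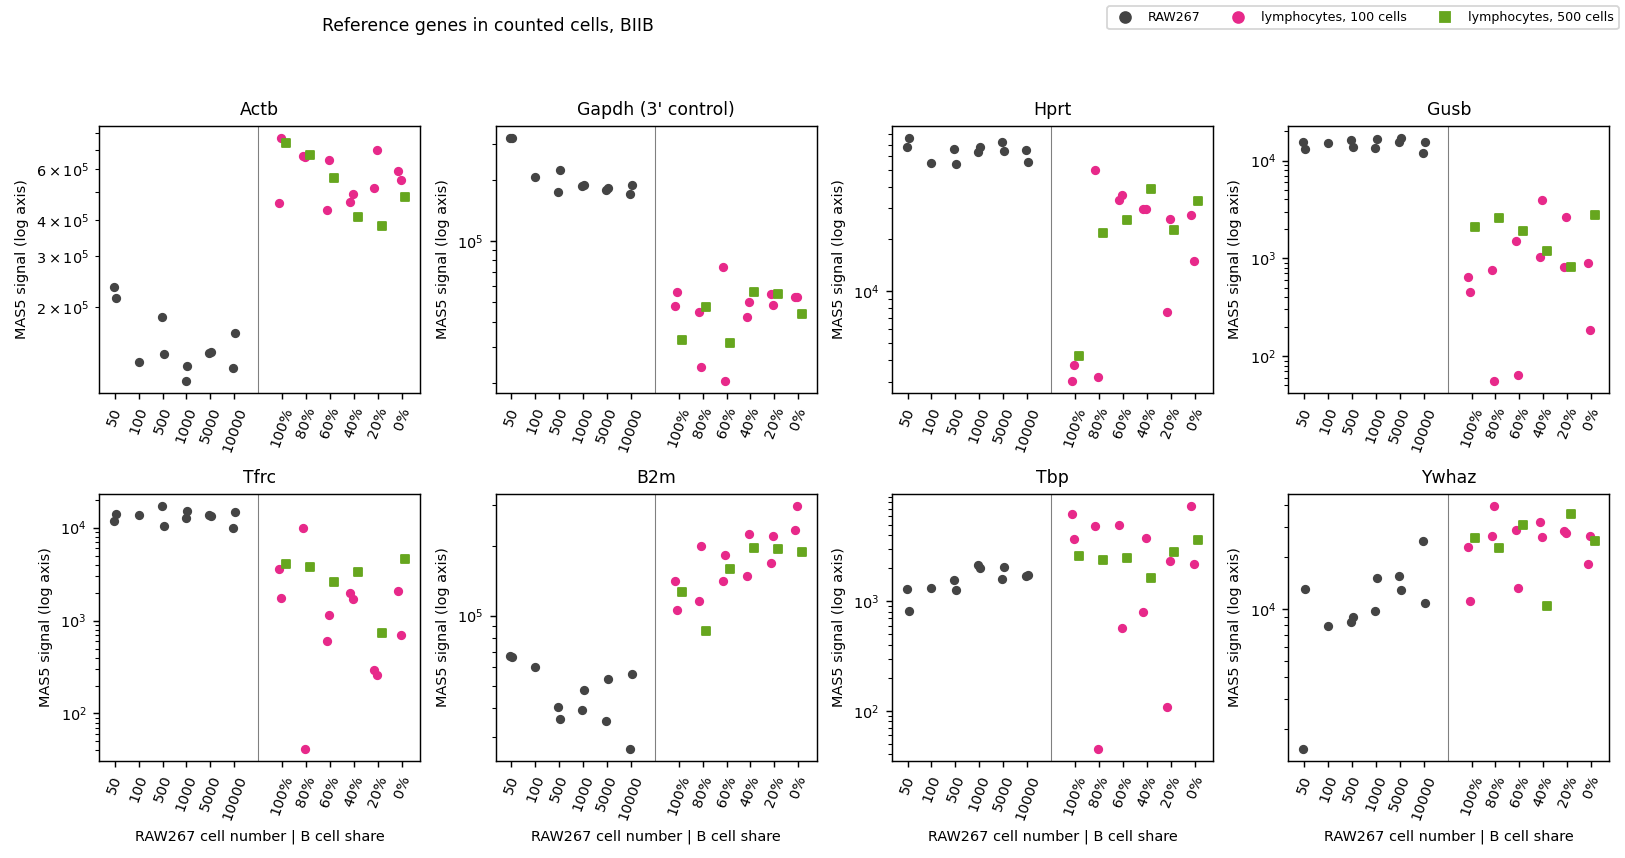
Signal of 8 reference genes in counted cells labelled with BIIB (y axis: MAS5 signal, log scale). To the left of the grey line are RAW267 arrays by cell number, to the right lymphocyte arrays by share of B cells (circles 100 cells, squares 500 cells); Gusb of RAW267 (11980 to 16955) lies above all lymphocyte arrays, and Hprt of the unmixed B cells (3035 to 4212) below the unmixed T cells.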

How the data were processed

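The authors deposited signal intensities on a linear scale, made with MAS5 per the submitters' processing notes. The arrays' trimmed means are nearly equal in the deposited values (2500.23 to 2502.45). The MAS5 version and settings are not given in the sources used here. The table holds 22690 probe sets on 103 arrays, 64 of them controls, and 22635 could be tested. Each array was rescaled to the common mean of 2501 after trimming 2% at each end. Probe sets with a mean signal of at least 500.0 over the arrays of a fit were tested in limma 3.58.1 (R 4.3.3) with Benjamini-Hochberg adjustment over all of them, on the scale given in the report. Ratios were tested with SciPy 1.17.1. The code of the fits was tested on simulated data with known changes. That test does not show how reliable the calls are on the real arrays, where replicates at low input lay far apart.

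The genes, pathway lists and marker lists were chosen with earlier results of these data known. Each gene is shown by its brightest probe set with a single symbol, up to 3 called genes of a list are named per comparison, and the genes most like each one were taken by Pearson's r over the tissue arrays. Groups come from the labels. Same-numbered BIIB arrays of 500 pg and 5 ng deviated together in all 4 pairs (r = 0.11 to 0.20). In each other comparison at least 1 pair was under 0.1 (1 ng against 5 ng: r = 0.088 to 0.26). Arrays of different numbers were not correlated, so these values cannot show whether the numbers pair the arrays. The main fits did not use replicate numbers as pairs. Alternatives were quantile normalization, a pseudocount of 25, no filter, the second brightest probe set, a replicate block, fits of fewer or more arrays, and leaving out arrays. Arrays give no counts, so no counting interval applies.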

Additional observations from a re-analysis of the deposited data

Results flagged for a closer look

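Tbp had a signal of 10314 on BIIB replicate 1 at 10 pg, against 5.20 to 185 on the other 3 arrays of that input, a gap of 0.98 of the whole range. It was the only 1 of 56 checks, each of a gene in a group of 4 arrays, above the outlier limit of 0.829. Chance passes that limit in about 1 of 20 checks, so 1 of 56 is not more than chance gives. The gap was taken on the linear signal, not on the log2 scale.

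The change of B2m between 50 pg and 500 ng ran in opposite directions in the kits. It was 0.86 with Ovation, against -1.87 with two-cycle and -1.48 with RiboAmp HS, differences of 2.73 and 2.34 on the log2 scale that were not tested.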

How the results depend on the processing

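Of 32 called pairs of gene and comparison, 25 stayed called with quantile normalization, 28 with a pseudocount of 25 and 30 with no filter. With the second brightest probe set 14 of 27 stayed called and 7 changed sign: Actb to -2.88 (Ovation 500 ng), -0.31 (BIIB 5 ng), -0.031 (Ovation 50 pg), -1.18 (RiboAmp HS 50 pg) and -0.66 (tissues, BIIB against one-cycle), and Ywhaz to 1.11 (Ovation 500 ng) and 2.61 (Ovation 50 pg). Hprt has no second probe set, so its pairs among the 27 repeated the main fit and could only stay called. With Hprt from its only probe set, this setting gave 14 calls in place of 8 for the protocols and 0 in place of 3 for the BIIB inputs. It gave 4 in place of 2 for BIIB against one-cycle over tissues, 1 in place of 0 for the RAW267 slope and 1 in place of 3 for RAW267 against lymphocytes. Quantile normalization gave 1 call in place of 3 for the BIIB inputs and 1 in place of 3 for RAW267 against lymphocytes, and a median spread over the one-cycle tissue arrays of 0.93 in place of 0.76. Fitting only the 4 arrays compared gave 0 calls in place of 3 at 50 pg. Arrays of 100 and 500 cells together gave 5 calls for RAW267 against lymphocytes. Without the arrays labelled brain and liver the tissue calls were 7 in place of 13 and the spread 0.63. The comparisons of labelled brain and labelled liver, with their own calls among the 13, drop out of that setting, so these counts cover different comparisons. Of the 8 called pairs that could be fitted again, in the tissues and in BIIB against one-cycle over tissues, 7 stayed called. Gusb in spleen lost its call.

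With the replicate number as a block the BIIB inputs gave 1 call in place of 3, the protocols 9 and the kits 2; Actb at 10 pg had an adjusted p of 0.168 and Tfrc of 0.0644 (limma). Leaving out 1 array gave 7 to 8 calls for the protocols, 1 to 9 for the kits, 0 to 4 for the BIIB inputs, 10 to 14 for the tissues, 5 to 6 for the tissue F test and 0 to 2 for RAW267 against lymphocytes. The cause of these changes was not tested. Most tissue and cell groups have 1 or 2 arrays, which limits the precision.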
